A study of Mus musculus with 14 samples.

Results

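The genes described here are 9 genes of 2 growth factor systems, Gdnf with its receptors Ret, Gfra1 and Gfra2, and the neurotrophins Bdnf and Ntf3 with the receptors Ngfr, Ntrk2 and Ntrk3. They were chosen by symbol as ligands and receptors of these systems, and by the measured difference of Gdnf between the tumour types, which was known from the same arrays. The levels of the 9 genes in the 2 types are therefore given as a description, without a test. All probes annotated to the symbols were taken. The arrays held 22 such probes of 45281, for 8 of the 9 genes, and all 22 were also in the authors' processed table. No probe was annotated to Ntf3, which was not analysed here. A probe was counted as detected on an array when its deposited detection p-value was under 0.05, and 13 of the 22 probes were detected on at least 3 of the 14 arrays, 3 on fewer and 6 on none. After the filter on detection 7 of the 9 genes stood among the 11786 genes tested, because the probe of Gfra2 was never detected.

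The samples were 14 primary mouse glioblastomas, 7 Type 1 and 7 Type 2, each measured on 1 single-colour Illumina bead array of total RNA. In Type 1 tumours the tamoxifen-inducible Cre was Nestin-CreERT2 and in Type 2 tumours NG2-CreERTM. Both types carried, among the alleles that Cre recombines, floxed Trp53 on both alleles, floxed Nf1 on 1 allele and a tdTomato reporter at Rosa, on a mixed genetic background. Every mouse received 1 oral dose of 10 mg tamoxifen per 20 g of body weight at 6 to 8 weeks of age, and the tumours were taken once the mice had symptoms. Nestin is active in neural stem and progenitor cells, and NG2 (Cspg4) in oligodendrocyte progenitors and in pericytes, so the promoter limits which cells could first recombine and not which cells a tumour later held. Batch 1 held 3 Type 1 and 4 Type 2 tumours and batch 2 held 4 Type 1 and 3 Type 2 tumours. The arrays came from 5 chips, each with tumours of 1 type, so chip and type cannot be told apart. Replicate numbers only name a tumour. The number of probes detected per array was 19299 to 20868. All 8 glioma markers with a named probe passed the filter and none passed the test between the types (limma, adjusted p under 0.05; 2 had an unadjusted p under 0.05). Values are background-corrected, quantile-normalized signals on a log2 scale, on which the lowest signal of a detected probe lay between 5.32 and 5.54 per array. In bulk tumour RNA, fewer cells of a type and less RNA per cell cannot be told apart.

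GDNF is a secreted survival factor of the TGF-β superfamily that binds a lipid-anchored co-receptor, GFRα1, and the pair then activates the receptor tyrosine kinase RET. BDNF and NT-3 are made as proneurotrophins and, once processed, act mainly through the kinases TrkB (Ntrk2) and TrkC (Ntrk3), while the p75 receptor (Ngfr) binds all neurotrophins and has a high affinity for the uncleaved forms. In the brain BDNF is made mostly by neurons, and astrocytes carry much TrkB, largely without its kinase domain. Outside the brain p75 is prominent in Schwann cells and other neural crest derivatives.

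Regulatory sequence is shown for Gdnf, Ngfr and Bdnf, the 3 genes whose levels differed most between the types. RefSeq (GRCm38.p6) gave 14 start windows for 6 of the 9 genes: 7 for Bdnf, 2 for Gdnf, 2 for Ntf3 and 1 each for Gfra1, Ngfr and Ntrk2. Each window holds 300 bases across a transcription start, most of them before it. Capitals mark the GC box GGGCGG and the core of a cAMP response element, TGACG, read on either strand, so that a match on the other strand appears as CCGCCC or CGTCA. The core is also part of the full element TGACGTCA. The windows below are chr15:7809798-7810097 and chr15:7813477-7813776 on the plus strand for Gdnf, chr11:95587649-95587948 on the minus strand for Ngfr and chr2:109692186-109692485 on the plus strand for start 3 of the 7 Bdnf windows, chosen because it holds the same core as the Gdnf window at start 1.
Gdnf, start 1: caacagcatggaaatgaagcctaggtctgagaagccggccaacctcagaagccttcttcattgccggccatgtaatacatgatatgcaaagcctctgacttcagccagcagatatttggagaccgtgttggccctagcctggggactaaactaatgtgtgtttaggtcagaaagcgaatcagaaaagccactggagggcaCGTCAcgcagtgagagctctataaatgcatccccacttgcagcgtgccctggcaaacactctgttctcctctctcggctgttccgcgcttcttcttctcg
Gdnf, start 2: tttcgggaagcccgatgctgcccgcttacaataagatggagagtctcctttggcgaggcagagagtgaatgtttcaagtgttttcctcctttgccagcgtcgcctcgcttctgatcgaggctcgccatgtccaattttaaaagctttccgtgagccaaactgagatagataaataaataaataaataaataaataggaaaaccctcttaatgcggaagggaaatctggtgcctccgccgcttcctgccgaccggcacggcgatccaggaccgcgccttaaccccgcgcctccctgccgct
Ngfr: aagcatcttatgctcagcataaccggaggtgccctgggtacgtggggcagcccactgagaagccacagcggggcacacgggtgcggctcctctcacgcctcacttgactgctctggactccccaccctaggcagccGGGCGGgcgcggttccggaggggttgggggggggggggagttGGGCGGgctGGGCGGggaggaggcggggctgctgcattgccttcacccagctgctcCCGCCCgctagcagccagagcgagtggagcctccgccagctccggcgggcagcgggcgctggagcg
Bdnf, start 3: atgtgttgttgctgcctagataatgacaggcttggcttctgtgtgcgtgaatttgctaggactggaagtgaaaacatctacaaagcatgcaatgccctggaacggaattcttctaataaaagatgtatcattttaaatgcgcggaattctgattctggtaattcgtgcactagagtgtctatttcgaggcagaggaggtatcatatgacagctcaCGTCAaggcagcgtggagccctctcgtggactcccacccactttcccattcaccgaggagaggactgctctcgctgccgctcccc
The Gdnf window at start 1 held 1 such core, 11 CG dinucleotides and 51.7% G and C. The Gdnf window at start 2 held neither of these letters and 22 CG dinucleotides. The Ngfr window held 4 GC boxes, 23 CG dinucleotides and 71.7% G and C. Over all 32851 windows of the same length, 35.7% held a GC box, 20.8% the core and 1.79% the full element. The letters AACAAT of SOX factors, also searched on both strands, were in none of the windows shown and in 10.7% of all, and the E-box CANNTG was in each window shown and in 72.3% of all. Over all windows the median held 7 CG dinucleotides and 52.7% G and C. No member window held the full element. The core was in no member window but Gdnf start 1 and Bdnf start 3, so the other Bdnf windows held none. A match is a description of the letters and not of a bound site.

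Gdnf, the ligand, was the member with the largest difference and was higher in Type 2. Its detected probe (NM_010275; gene at chr15:7810048-7837580 of GRCm38.p6) had a lowest value of 4.83, a median of 7.11 and a highest value of 8.40 in the Type 1 tumours. In the Type 2 tumours the lowest was 8.68, the median 9.52 and the highest 10.91. Every Type 2 tumour lay above every Type 1 tumour, and the nearest neighbours across the types were Type 1 replicate 7 and Type 2 replicate 1. The means were 6.73 ± 1.19 (SD, n = 7) and 9.61 ± 0.86 (SD, n = 7). With batch as a term, Type 1 minus Type 2 was -2.83 ± 0.51 (SE), a 7.13-fold higher level in Type 2. The difference was -3.07 in batch 1 and -2.60 in batch 2. The probe was detected in 6 of 7 Type 1 tumours and 7 of 7 Type 2 tumours, and the second Gdnf probe on no array. Within Type 1 the range covered most of the scale between the detection limit and the lowest Type 2 tumour.

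**Figure D1:**
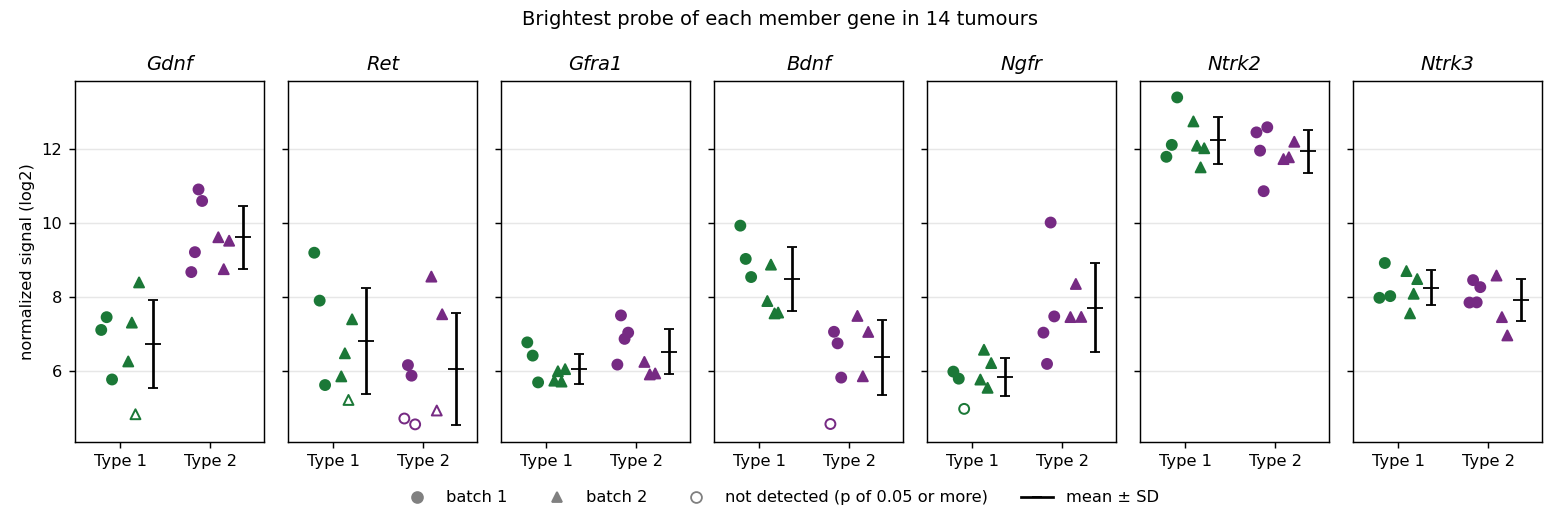
Normalized signal (log2) of the brightest probe of 7 genes in each of 14 tumours, by type and by batch (circles batch 1, triangles batch 2); open symbols were not detected and bars show the mean ± SD of 7 tumours. The types do not overlap for Gdnf and Bdnf, and they overlap for Ret, Gfra1, Ngfr, Ntrk2 and Ntrk3.

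Ret, the signalling receptor of GDNF, varied more among tumours of 1 type than between the types. Its brighter probe (NM_001080780; chr6:118151748-118197744) ranged from 5.22 to 9.20 in Type 1, with a median of 6.48, and from 4.56 to 8.55 in Type 2, with a median of 5.88. It was detected in 6 Type 1 and 4 Type 2 tumours. The means were 6.81 ± 1.43 and 6.05 ± 1.51 (SD, n = 7 each), and Type 1 minus Type 2 was 0.74 ± 0.73 (SE), which is within the spread of the tumours. The direction differed between the batches, with 2.25 in batch 1 and -0.77 in batch 2. In batch 1 the Type 1 values were 9.20, 7.90 and 5.62 and the Type 2 values 4.72, 6.16, 5.88 and 4.56. In batch 2 the Type 1 values were 5.86, 6.48, 5.22 and 7.40 and the Type 2 values 8.55, 4.93 and 7.53. Thus the high tumours of batch 1 were Type 1 and the highest of batch 2 was Type 2. The type by batch interaction of Ret was -3.02 ± 1.26 (SE), with an unadjusted p of 0.0323 and an adjusted p of 0.263 in limma, and did not pass. The second Ret probe, annotated to the same transcript, had nearly the same difference, 0.76, and was detected in 4 Type 1 tumours and 1 Type 2 tumour. The probe for NM_009050 was detected on no array.

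The tumours with most Ret were also those with most choroid plexus RNA. Choroid plexus, the epithelium that makes cerebrospinal fluid, was read from the summed signal of its 3 marker genes in the fit, of 6 listed. That sum was 27521 in Type 1 replicate 1 and 14277 in Type 2 replicate 5, against 1046 in the next tumour, Type 2 replicate 7. The first 2 of these held the highest Ret signals of their types, 9.20 and 8.55, and Type 2 replicate 7 held the next highest of Type 2, 7.53. The other 11 tumours had choroid plexus sums of 83.2 to 339 and Ret signals from 4.56 to 7.90, so Ret also varied where choroid plexus genes were low. Without the 2 tumours with the highest sums, Type 1 minus Type 2 for Ret was 0.72. The part of choroid plexus in the Ret signal was not tested.

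**Figure D2:**
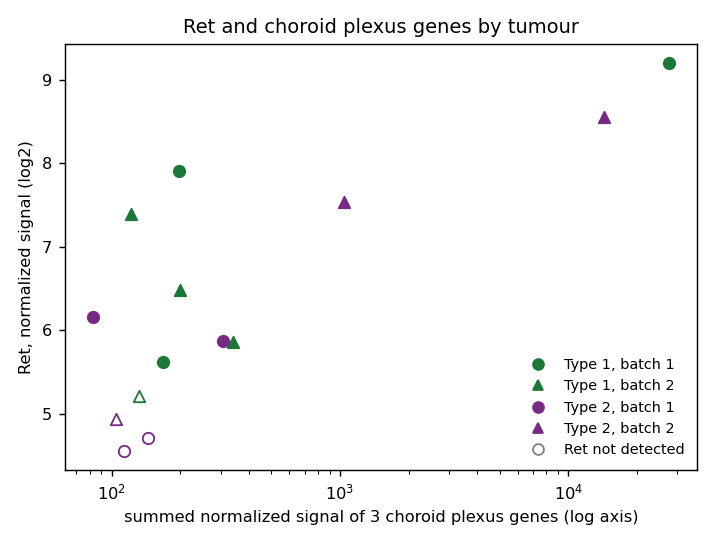
Ret signal (log2) of each tumour against the summed normalized signal of 3 choroid plexus genes (log axis), coloured by type, with batch as the symbol and open symbols where Ret was not detected. The 2 tumours on the far right have sums of 27521 and 14277 and the 2 highest Ret values.

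Gfra1, the co-receptor that holds GDNF, was detected in all 14 tumours at low signal. The probe (NM_010279; chr19:58235581-58455946) ranged from 5.69 to 6.77 in Type 1, with a median of 5.99, and from 5.91 to 7.50 in Type 2, with a median of 6.25. The groups overlapped, and the 3 highest values, 7.50, 7.04 and 6.87, all came from Type 2 tumours of batch 1. The means were 6.06 ± 0.41 and 6.53 ± 0.62 (SD, n = 7 each) and the difference was -0.38 ± 0.22 (SE), with -0.60 in batch 1 and -0.15 in batch 2. Gfra1 was the member with the largest difference between the batches relative to its error, batch 2 minus batch 1 being -0.64 ± 0.22 (SE). Its unadjusted p was 0.0102 and its adjusted p 0.0744 in limma. Gfra2, the preferred co-receptor of neurturin, had signals at the level of background in both types, 4.77 ± 0.17 and 4.71 ± 0.14 (SD, n = 7 each), and was detected on none of the 14 arrays.

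Bdnf had the largest difference among the 4 members with a higher mean in Type 1, which were Bdnf, Ret, Ntrk2 and Ntrk3. Its brightest probe (NM_001048141; chr2:109674700-109727043) had a lowest value of 7.56, a median of 8.54 and a highest value of 9.93 in Type 1. In Type 2 the lowest was 4.57, the median 6.75 and the highest 7.49. All Type 1 tumours lay above all Type 2 tumours, although the lowest Type 1 and the highest Type 2 value were close. The means were 8.49 ± 0.87 and 6.37 ± 1.01 (SD, n = 7 each), and Type 1 minus Type 2 was 2.15 ± 0.47 (SE), a 4.43-fold higher level in Type 1. The probe was detected in 7 Type 1 and 6 Type 2 tumours. The difference was 3.12 in batch 1 and 1.18 in batch 2. The interaction of -1.94 ± 0.82 (SE) had an unadjusted p of 0.0334 and an adjusted p of 0.266 in limma, and did not pass.

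All 6 Bdnf probes had a higher mean in Type 1, but only 3 of them were detected on at least 3 arrays. A probe for NM_007540 had means of 6.27 ± 1.34 and 5.25 ± 0.69 (SD, n = 7 each), a difference of 1.02, and was detected in 5 Type 1 and 3 Type 2 tumours. Its means in Type 1 and Type 2 were 6.76 and 4.91 in batch 1 but 5.90 and 5.72 in batch 2. The probe for NM_001048142 was detected in 3 Type 1 and no Type 2 tumours. Its means in Type 1 and Type 2 were 6.00 and 4.91 in batch 1 but 4.99 and 4.89 in batch 2. The measured means of this probe over both batches were 5.42 and 4.90. With the Type 2 values raised to the lowest detected signals, the Type 1 mean was 1.02-fold higher. Most Type 1 values were undetected too, so this is not a lower bound. A further pair of probes was detected in 1 Type 1 tumour each, which was replicate 1, the tumour with the highest Bdnf signal, and 1 probe on no array. Bdnf has several first exons that are joined to a shared coding exon, and the probe sequences were not used here, so the part of the transcript that each probe reads is not given.

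Ngfr, the p75 receptor, was higher in Type 2, with overlap. The detected probe (NM_033217; chr11:95568818-95587698) had a lowest value of 4.98, a median of 5.79 and a highest value of 6.57 in Type 1. In Type 2 the lowest was 6.19, the median 7.46 and the highest 10.01. Type 2 replicate 2, at 6.19, fell within the Type 1 range and below 2 Type 1 tumours, and the other 6 Type 2 tumours lay above every Type 1 tumour. Type 2 replicate 3, at 10.01, stood apart from the next Type 2 tumour, at 8.35. The means were 5.84 ± 0.51 and 7.71 ± 1.20 (SD, n = 7 each), and the difference was -1.91 ± 0.46 (SE), a 3.77-fold higher level in Type 2, with -2.10 in batch 1 and -1.73 in batch 2. The probe was detected in 6 Type 1 and 7 Type 2 tumours and the other 2 Ngfr probes on no array.

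Ntrk2, which encodes TrkB, gave strong signals in every tumour. Its brightest probe (NM_001025074; chr13:58806472-59133970) ranged from 11.51 to 13.40 in Type 1, with a median of 12.09, and from 10.86 to 12.59 in Type 2, with a median of 11.96. The groups overlapped almost fully. The difference was 0.33 ± 0.31 (SE), from means of 12.24 ± 0.64 and 11.94 ± 0.57 (SD, n = 7 each), and it shrank to 0.10 when Type 1 replicate 3 was left out and to 0.15 when Type 2 replicate 3 was. A second probe annotated to the same transcript showed another pattern. It had means of 6.87 ± 0.66 and 5.71 ± 0.74 (SD, n = 7 each), a difference of 1.15, and was detected in 7 Type 1 and 4 Type 2 tumours. The probe for NM_008745 had means of 5.68 and 5.51 and was detected in 5 Type 1 and 4 Type 2 tumours, and the remaining probe was detected in 1 tumour.

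Ntrk3, which encodes TrkC, was detected in all 14 tumours by both of its probes, which ran in opposite directions. The brighter probe (NM_008746; chr7:78179986-78581034) ranged from 7.56 to 8.92 in Type 1, with a median of 8.09, and from 6.96 to 8.58 in Type 2, with a median of 7.86. Its means were 8.25 ± 0.47 and 7.92 ± 0.58 (SD, n = 7 each) and its difference 0.37 ± 0.27 (SE). The probe for NM_182809 ranged from 5.63 to 6.84 in Type 1 and from 5.36 to 7.28 in Type 2, and its difference was -0.54. The mean of both probes gave -0.09. Trk genes produce receptors with and without a kinase domain, and which form each probe reads was not determined here.

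**Figure D3:**
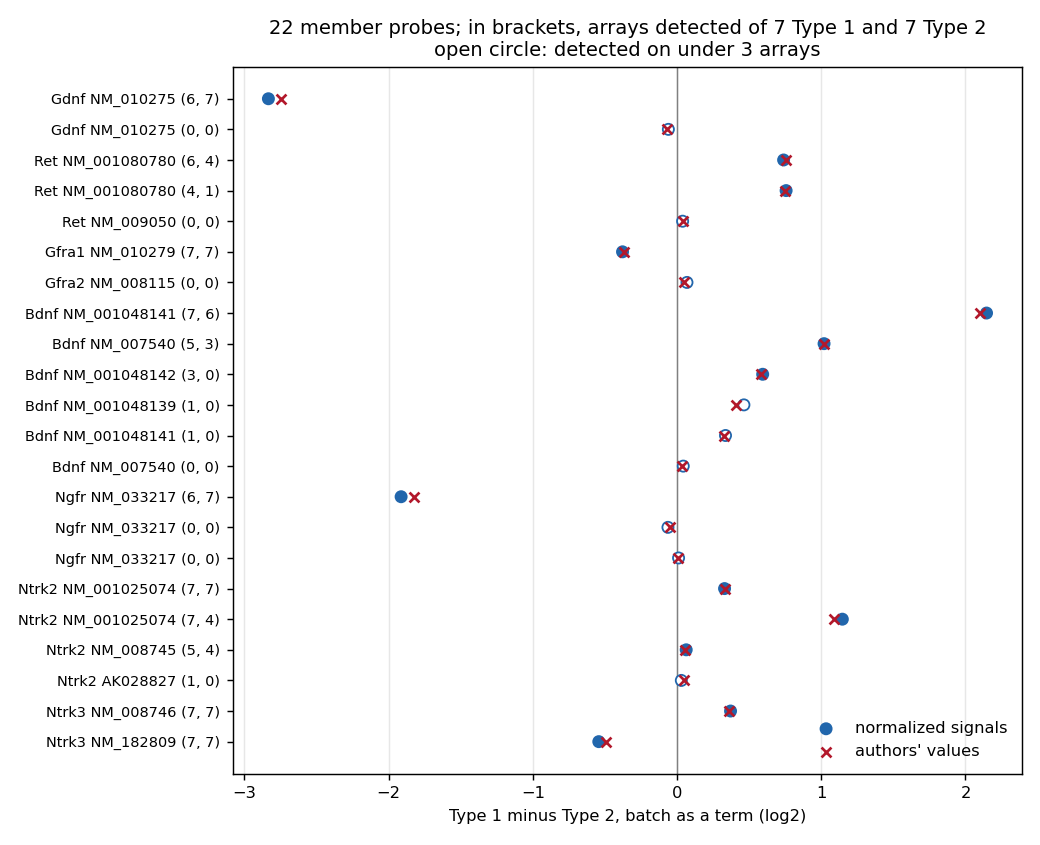
Type 1 minus Type 2 (log2, batch as a term) of each of the 22 probes, from the normalized signals (circles, open where detected on under 3 arrays) and from the authors' processed values (crosses). Numbers in brackets give the arrays of each type on which the probe was detected, and the values of both tables lie close together for every detected probe.

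The authors' processed values gave the same sign as the normalized signals for all 13 probes detected on at least 3 arrays, and the largest gap between the differences was 0.09. Without background correction the differences were smaller for Gdnf (-1.76), Bdnf (1.16), Ngfr (-0.88), Ret (0.31) and Gfra1 (-0.14), and the mean of the detected probes gave 1.25 for Bdnf. The types did not overlap for 2 members, against 1.23% of all genes. The median absolute difference of the 7 members was 0.74, and that of all genes 0.25. The median signed difference was 0.33 for the members and -0.01 for all genes. As the type contrast chose the genes, nothing is read from these values.

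The batch terms were not used in choosing the genes and were tested. None of the 7 members passed the type by batch interaction at an adjusted p of 0.05 in limma, and 0% of all genes did. At an unadjusted p under 0.05 the interaction held 2 members (Ret and Bdnf) and 1931 genes, 16.4% of all. Between the batches, no member passed an adjusted p of 0.05 in limma, and 10.7% of all genes did. An unadjusted p under 0.05 was reached by 1 of the 7 members (Gfra1) and by 3105 of the 11786 genes.

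Ligands and receptors were next compared from tumour to tumour, after the mean of each type and batch was removed, which is variation that the choice of genes did not use. Of 12 ligand, receptor and co-receptor pairs listed, 7 had both genes in the fit. Each was tested by a two-sided exact permutation test within type and batch (20736 permutations), with p adjusted over the 7 pairs. Ret and Gfra1, the kinase and the co-receptor of GDNF, moved together with a Pearson r of 0.69 (permutation p = 0.00559, adjusted 0.0392) and a Spearman rho of 0.77 (permutation p = 0.00516, adjusted 0.0361) over 14 tumours. Without the 2 tumours farthest from the median of Ret r was 0.65. It was 0.97 in Type 1 and 0.46 in Type 2, and 0.78 in batch 1 and 0.80 in batch 2.

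Gdnf and Ret had an r of 0.59 (permutation p = 0.0142, adjusted 0.0498) and a rho of 0.50 (permutation p = 0.0666, adjusted 0.180), so the pair passed by r and missed by rank. Without the 2 tumours farthest from the median of Gdnf r was 0.55. It was 0.78 in Type 1 and 0.33 in Type 2, and 0.45 in batch 1 and 0.71 in batch 2. Gdnf and Gfra1 had an r of 0.49 (adjusted permutation p = 0.163) over the 14 tumours. For Ngfr and Ntrk2 r was -0.61 (adjusted permutation p = 0.163). For Bdnf and Ntrk2 it was -0.43 (adjusted permutation p = 0.297). The pair Ngfr and Ntrk3 had an r of -0.25 (adjusted permutation p = 0.321), and Bdnf and Ngfr one of 0.19 (adjusted permutation p = 0.728). These 5 pairs did not pass. Leaving out 1 tumour at a time gave 0 to 3 passing pairs, while r ran from 0.51 to 0.68 for Gdnf and Ret and from 0.54 to 0.78 for Ret and Gfra1. Gdnf and Ret kept their call in 2 of the 14 left-out fits (without Type 2 replicate 2 or 4), and Ret and Gfra1 in 4 (without Type 2 replicate 2, 4, 6 or 7). None passed once both tumours rich in choroid plexus RNA were removed, where r was 0.58 for Ret and Gfra1 and 0.65 for Gdnf and Ret. Ret was below detection in 4 of the 14 tumours, so its low values carry little order.

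**Figure D4:**
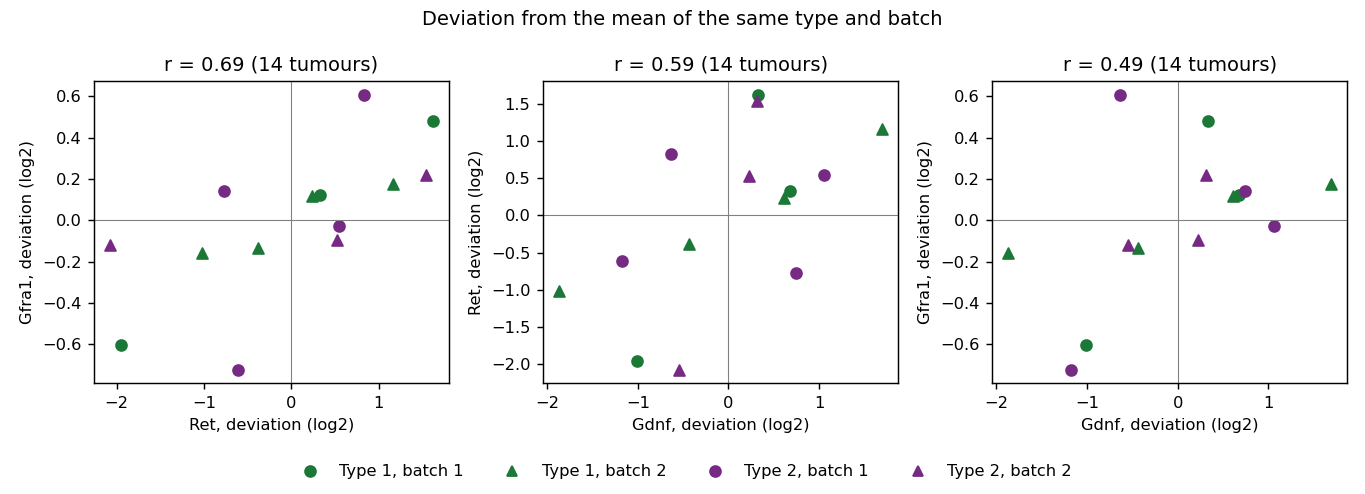
Deviation of each tumour from the mean of its type and batch (log2) for Ret and Gfra1, Gdnf and Ret, and Gdnf and Gfra1, with type as colour and batch as symbol. Pearson r over the 14 tumours is 0.69, 0.59 and 0.49, and the first 2 pairs passed after adjustment over 7 pairs.

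The genes whose tumour-to-tumour deviations were most like those of a member were found over all 11786 genes, again after removal of the type and batch means, and are given as a description over 14 tumours. The gene most like Gdnf was Ttll1, a tubulin polyglutamylase subunit (r = 0.97), followed by Otud3 (0.91) and Pithd1 (0.89). For Ret these were Sqstm1, which encodes the autophagy receptor p62 (0.90), Kif3c (0.89) and Wdr59 (0.85). For Gfra1 they were Yars (0.91), the calcium channel gene Cacna1h (0.90) and Ywhag (0.89). For Bdnf they were the fatty acid binding protein gene Fabp3 (0.84), Zfp28 (0.83) and the potassium channel gene Kcnk13 (0.83). For Ngfr they were Plpbp (0.94), Mxra7 (0.91) and Btc, the EGF-family ligand betacellulin (0.90). For Ntrk2 they were Rbm26 (0.95), Prxl2c (0.92) and Timp4, a metalloproteinase inhibitor (0.92). For Ntrk3 they were Bmp7, a ligand of the BMP family (0.90), Tmem132d (0.89) and Otos (0.89). The points share the array and its normalization, and with 14 tumours and 11786 genes high values of r occur for many genes.

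The rest of the GDNF and neurotrophin systems was read from 6 lists of other genes, 89 genes in all, of which 75 had a named probe and 51 were in the fit. Of these 51, 1 was higher in Type 1, 1 was higher in Type 2 and 49 did not pass (limma, p adjusted over all genes). The 2 passing genes are 3.92% of the 51, near the 4.64% of all genes that passed, of which 2.32% were higher in Type 1 and 2.32% in Type 2, and the median difference was -0.01. At an unadjusted p under 0.05 there were 17. The share of all genes at that cut was not counted, so nothing is read from this number. No gene of the lists passed the type by batch interaction. As the lists were chosen with earlier results of these data known, their p-values between the types are descriptive.

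Among 15 other receptors and co-receptors, 9 were in the fit and Gfra4, the co-receptor that binds persephin, was higher in Type 1. Gfra4 ranged from 4.73 to 6.97 in Type 1, with a median of 6.28, and from 4.55 to 5.68 in Type 2, with a median of 4.76. It was detected in 5 Type 1 tumours and 1 Type 2 tumour, so the Type 2 values lay mostly at background. The difference was 1.21 ± 0.32 (SE), 2.32-fold, with an adjusted p of 0.0459 in limma, and was 1.31 in batch 1 and 1.12 in batch 2. The call of Gfra4 was near the threshold and did not survive the removal of a single tumour for 11 of the 14 tumours (limma adjusted p from 0.0148 to 0.105); it held without Type 1 replicate 3 or 4 or Type 2 replicate 6. It was also lost with median scaling (adjusted p = 0.0558), the authors' values (0.0522), chip as a random block (0.0532), no background correction (0.0688), no detection filter (0.0775), in batch 1 alone (0.183), in batch 2 alone (0.190) and without both tumours rich in choroid plexus RNA (0.175). The other 8 did not pass, among them Sorl1, a sorting receptor related to sortilin, with 1.07 ± 0.35 (SE; adjusted p = 0.0929 in limma).

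Of the regulators that control Gdnf in the developing kidney, 8 of 17 were in the fit and Eya1 was higher in Type 2. EYA1 is a transcriptional coactivator and phosphatase that Gdnf expression in kidney mesenchyme depends on in the mouse. Eya1 ranged from 4.46 to 7.52 in Type 1, with a median of 4.87, and from 5.05 to 9.01 in Type 2, with a median of 8.69. It was detected in 2 Type 1 and 6 Type 2 tumours, and Type 2 replicate 1, at 5.05, was the tumour in which it was not. That tumour had the lowest Gdnf signal of Type 2, 8.68, whereas the 2 Type 1 tumours with Eya1 detected, replicates 3 and 6, had the 2 lowest Gdnf signals of Type 1, 5.77 and 4.83. The difference was -2.84 ± 0.65 (SE), 7.18-fold, with an adjusted p of 0.0272 in limma, and was -2.02 in batch 1 and -3.66 in batch 2. The call was lost when 1 tumour was removed for 7 of the 14 tumours (limma adjusted p from 0.00311 to 0.0661), which were replicates 1, 2 and 5 of Type 1 and 3, 5, 6 and 7 of Type 2. The difference stayed between -3.33 and -2.67 over the 14 fits. It was smaller with the mean of the detected Eya1 probes, -1.82 (adjusted p = 0.0219 in limma). Without background correction it was -1.35 (adjusted p = 0.0257 in limma). The call was lost too in batch 1 alone (adjusted p = 0.328), with no detection filter (0.0527), and when both tumours rich in choroid plexus RNA were removed (adjusted p = 0.118). The listed regulators Pax2, Six4, Hoxa11, Hoxc11, Gdf11 and Pax3 were not detected on any array.

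The remaining lists had no passing gene. Among 6 other ligands 1 was in the fit, Artn (artemin), with -0.25 ± 0.53 (SE; adjusted p = 0.834 in limma), and Nrtn and Ntf5 were detected on no array. Of 9 genes of proneurotrophin processing 4 were in the fit, with differences from -0.36 to 0.54. Of 26 adaptors and signal relays 17 were in the fit, from -0.76 to 0.88. Of these adaptors 10 had an unadjusted p under 0.05, a cut at which all genes were not counted. The one nearest to passing was Dok5, an adaptor of RET and Trk receptors, with 0.88 ± 0.24 (SE; adjusted p = 0.0523). Of 16 transcriptional targets 12 were in the fit, from -1.14 to 0.99. The immediate early gene Fos was the lowest of them, -1.14 ± 0.32 (SE; adjusted p = 0.0562 in limma), and Vgf, a secreted product that neurotrophins induce, was the highest, 0.99 ± 0.71 (SE; adjusted p = 0.45).

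**Figure D5:**
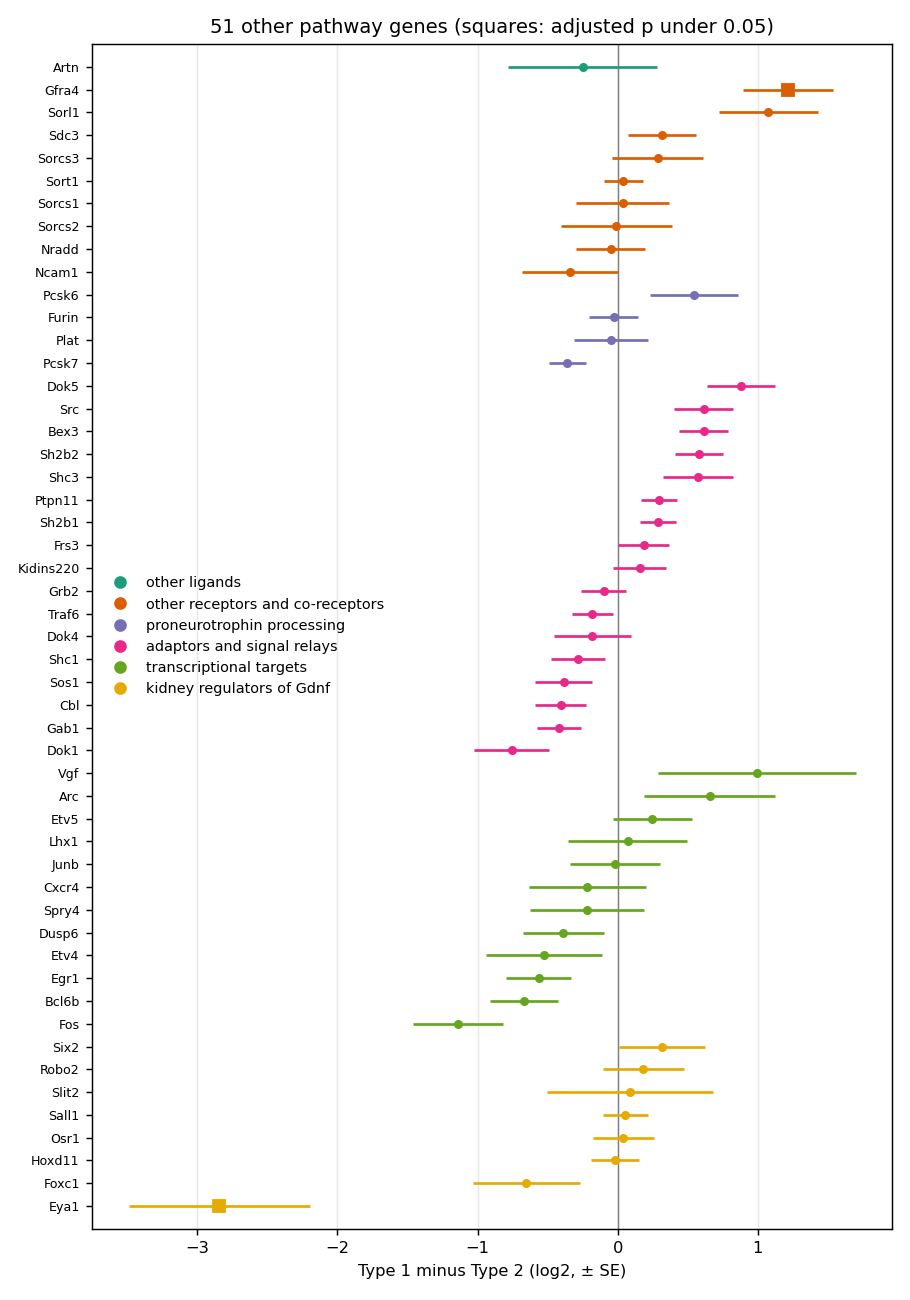
Type 1 minus Type 2 (log2, ± SE) of the 51 other genes of the pathway lists in the fit, by list; squares passed an adjusted p of 0.05. Gfra4 at 1.21 and Eya1 at -2.84 are the 2 that passed.

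Marker genes of other cell types were read beside the members. These lists were chosen with earlier results of these data known, so their p-values between the types, here and below, are descriptive. Of 8 neuron markers 7 were in the fit and 1 passed, Rbfox3 (NeuN), higher in Type 1 by 2.65 ± 0.55 (SE; adjusted p = 0.0185 in limma). The summed neuron signal was 3403 to 11855 in Type 1 and 1152 to 11220 in Type 2, and Snap25 was not detected. Of 7 astrocyte markers 3 were higher in Type 1, Aqp4 by 2.12, Slc1a2 by 2.03 and Slc4a4 by 1.90 (adjusted p = 0.0267, 0.0158 and 0.0205 in limma), with sums of 19712 to 68960 in Type 1 and 8370 to 27922 in Type 2. The other 6 neuron markers and 4 astrocyte markers in the fit did not pass. The genes that passed were higher in the type with more Bdnf, and their part in its level was not tested.

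Some markers of neural crest derivatives were higher in Type 2, the type with more Gdnf and Ngfr. Of 8 pigment cell markers 4 were in the fit, and Dct and Pmel were higher in Type 2, with Type 1 minus Type 2 of -4.40 and -3.84 (adjusted p = 0.000636 and 0.00318 in limma), while Oca2 (0.47) and Slc45a2 (0.00) did not pass. The pigment cell sums were 138 to 259 in Type 1 and 642 to 6236 in Type 2, without overlap. In Type 2 they came mostly from Dct and Pmel, while Tyr, Tyrp1 and Mitf were detected on no array. Of 8 Schwann cell markers 5 were in the fit, and Dhh and Cdh19 were higher in Type 2, at -4.20 and -2.23 (adjusted p = 0.00695 and 0.0387 in limma), and the other 3 did not pass. The Schwann cell sums were 565 to 3946 in Type 1 and 1558 to 11512 in Type 2. Type 2 replicate 3 had the highest pigment cell sum, the highest Schwann cell sum, the highest Gdnf and the highest Ngfr signal. It also had the highest summed signal of the myelin markers, 23461. The order did not hold in every tumour. Type 2 replicate 2 had the lowest Ngfr signal of Type 2, 6.19, with a pigment cell sum of 642 and a Schwann cell sum of 6801. Type 2 replicates 1 and 7 had Schwann cell sums of 1558 and 1902, within the Type 1 range. Their Gdnf (8.68 and 9.52) and Ngfr signals (7.04 and 7.46) lay above every Type 1 tumour. Their pigment cell sums, 1571 and 1889, did so as well. Of the enteric and sympathetic crest markers 1 of 8 was in the fit, Ednrb at -0.08 (adjusted p = 0.875 in limma, not passing), and Th, Dbh, Hand2, Hoxb5 and Edn3 were detected on no array.

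In other lists Vwf and Tie1 of 5 endothelial markers (-1.78 and -0.87), Rgs5 of 5 mural markers (-1.46), Lum and Col1a1 of 7 fibroblast markers in the fit (-2.47 and -1.78) and Cnp of 5 myelin markers in the fit (-1.59) were also higher in Type 2, and the other genes of these lists did not pass. The myelin genes Mobp, Mog and Mag had differences of the other sign, 1.21, 0.29 and 0.16, and the median of that list was 0.16. For Vwf, Tie1, Rgs5, Lum, Col1a1 and Cnp the adjusted p in limma were 0.0057, 0.0101, 0.0185, 0.0143, 0.0492 and 0.025. Mobp, Mog and Mag did not pass. The summed signals in Type 1 and Type 2 were 1420 to 4377 and 4491 to 7463 for endothelium, which did not overlap. For mural cells the sums were 843 to 2976 and 2277 to 8782. They were 2722 to 9931 and 5059 to 10878 for fibroblasts, and 3400 to 12580 and 2897.7 to 23461 for myelin. No microglia marker of 4 and no choroid plexus marker of 3 in the fit passed, and none of either had an unadjusted p under 0.05. The part of these cell types in the levels of Gdnf and Ngfr was not tested.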

How the data were processed

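The deposited signal intensity and detection p-value of each probe were used per the file headers; the submitters' processing notes name BeadStudio, with no version given in the sources used here. The authors' second table held processed log2 values of 38502 probes, with array medians of 2.67 to 2.69. Their deviations within batch had a slope of 0.97 to 1.10 on those of the log2 deposited signals, over 1400 bright probes. How that table was normalized, and whether probes were centred, is not stated. Of 45281 probes 32034 had 1 gene symbol in the platform annotation, 16 several and 13231 none.

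Signals were corrected with normexp (offset 16) and quantile-normalized with neqc in limma 3.58.1 (R 4.3.3). Probes detected (p under 0.05) on at least 3 arrays were kept, 18430 with a name, and the brightest stood for each of 11786 genes. lmFit and eBayes were run over all 14 tumours with type and batch, and p-values were adjusted by Benjamini-Hochberg over all genes; the fit was tested on simulated data. By its label each array held a separate tumour. The number of arrays limits the precision. Members and lists were chosen with earlier results of these data known. The text names all members, list genes that passed (for a pathway list, up to 6; for a marker list, up to 4, by lowest p) and the 3 genes most like each member; other pathway genes named here were singled out after their values were seen. Alternatives covered background, scaling, the authors' values, filter, probe choice, batch, chip and left-out tumours. One element of the genotype is left out here.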

Additional observations from a re-analysis of the deposited data

Results flagged for a closer look

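Over the 13 member probes detected on at least 3 arrays, 26 groups of 7 tumours were examined for a single outlying tumour. The cut flags about 1 group in every 20 by chance alone. Of the 26 groups 1 was flagged, which is near that rate. The second Ret probe had a signal of 6.69 (log2) in Type 2 replicate 5, against 5.15 in the next tumour and 4.57 at the other end, a gap of 0.728 of the range. It was the only Type 2 tumour in which this probe was detected. The same tumour held the highest Ret signal of Type 2 with the brighter probe, 8.55, and a choroid plexus sum of 14277.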

How the results depend on the processing

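No paired analysis was possible because the replicate numbers only follow the order of the samples. The member differences kept their sign under every alternative but 2: Ret in batch 2 alone (-0.77) and Ntrk3 with the mean of its probes (-0.09). Without background correction they were -1.76 for Gdnf, 1.16 for Bdnf, -0.88 for Ngfr, 0.31 for Ret and -0.14 for Gfra1, and with the mean of the detected probes 1.25 for Bdnf and 0.51 for Ntrk2. Leaving out 1 tumour gave -3.11 to -2.56 for Gdnf, 0.20 to 1.27 for Ret, -0.48 to -0.22 for Gfra1, 1.85 to 2.42 for Bdnf, -2.13 to -1.54 for Ngfr, 0.10 to 0.45 for Ntrk2 and 0.20 to 0.55 for Ntrk3. Genes passing between the types, 547, were 166 in batch 1 alone, 123 in batch 2 alone, 106 without both tumours rich in choroid plexus RNA, and 195 (without Type 1 replicate 2) to 639 with 1 tumour left out. Other pathway genes passing, 2, were 1 with median scaling, the authors' values, chip as a random block and batch 2 alone. Without those 2 tumours 1 passed (Dok5), and with the mean of the detected probes 3 did (Sh2b2, Eya1 and Gfra4). The count was 0 with no detection filter and 0 to 3 with 1 tumour left out. Where the count stayed at 2 the genes could change. Dok5 and Sorl1 passed in batch 1 alone, and Bex3 and Eya1 without background correction. Dok5 and Eya1 passed with detection on at least 7 arrays. Genes passing the interaction, 0, were 2 without background correction, 1 with the authors' values, 11 with no detection filter, 5 with detection on at least 7 arrays and 0 to 36 with 1 tumour left out. Genes passing between the batches, 1258, were 4181 with median scaling, under which the median of all genes shifted by -0.39 (batch 2 minus batch 1; -0.02 with quantile normalization), 0 with the authors' values, 674 without the 2 choroid plexus tumours and 867 to 1334 with 1 tumour left out. Passing correlations, 2, were 0 without background correction, with median scaling and without those 2 tumours, 1 with the authors' values or the mean of probes, and 0 to 3 with 1 tumour left out. The r of Bdnf and Ngfr ran from -0.14, a reversed sign, without Type 2 replicate 3 to 0.56 without Type 2 replicate 2. The causes were not tested. Signals near the detection limit (Ret, Gfra1, Gfra4, Ngfr in Type 1 and most second probes) have compressed differences.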
